A study of Mus musculus with 12 samples.

Results

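The 6 genes described here are the interleukin 33 and ST2 axis: the alarmin Il33, the 2 chains of its receptor, Il1rl1 (the gene of ST2) and Il1rap, and the type 2 lymphocyte genes Gata3, Il13 and Il5. They were taken by gene symbol from the 55491 entries of the deposited gene tables. They were chosen by the p of Il1rl1 between nanoparticle and vehicle lungs, where it ranked 12 of 17909 genes, and by their known roles, so member values in that contrast are given as a description, with no test. Messenger RNA of whole lungs (all 5 lobes, without the large airway and trachea) was sequenced in 12 mice. The strain was C57BL/6J (wild type, male, 10 weeks of age), and every mouse had received bleomycin by the oropharyngeal route (0.0125 U per mouse, about 0.5 U/kg), a drug whose injury to the alveoli leaves a scar. The Day 21 NP group received polymer nanoparticles (a PLG core with a PEMA surfactant coat) by retro-orbital injection, 2 mg per dose, in 5 daily doses from day 14 to day 18. The Day 21 vehicle group received phosphate-buffered saline. The Day 14 group was taken at day 14 with no intravenous treatment. Each of the 3 groups held 4 mice, and lungs without bleomycin were not analysed here.

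IL-33 is stored in the nuclei of barrier and stromal cells and is released when those cells are damaged. Outside the cell it binds ST2, the receptor pairs with the accessory chain encoded by Il1rap, and MyD88, IRAK kinases and TRAF6 carry the signal to NF-kB. In the lung the main ST2-bearing cells are group 2 innate lymphoid cells (ILC2), Th2 cells, a share of regulatory T cells, mast cells and basophils. GATA3 is the transcription factor that these type 2 lymphocytes depend on, and IL-5 and IL-13 are their effector cytokines, acting on eosinophils and on macrophages, epithelium and fibroblasts. Il1rl1 also gives a short, soluble form of ST2 that traps IL-33, and counts per gene do not separate it from the membrane form.

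Library totals ran from 24138582 to 28910459 expected counts in NP lungs, from 28001006 to 36208498 in vehicle lungs and from 25706260 to 42714693 in Day 14 lungs. At these totals 3 counts in a library correspond to between 0.0719 and 0.125 CPM, the count scaled to the library size. NP replicate 3 stood apart from the other libraries in neutrophil genes: the neutrophil marker S100a8 had 322.2 CPM there and between 8.12 and 29.97 CPM in the other 11 libraries. The 8 neutrophil markers summed to between 109.9 and 1214 CPM in NP lungs, between 64.97 and 153 CPM in vehicle lungs and between 47.18 and 96.13 CPM in Day 14 lungs. Member values are therefore also given without NP replicate 3, as are the NP counts of the gene lists that differed without it, and a gene named for such a difference was chosen for its changed call. Surfactant protein C (Sftpc), the defining alveolar type 2 gene of lung, was at 10540 CPM or more in every library, as the lung label implies.

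All 6 genes are annotated as protein coding in GENCODE M21 on GRCm38. Il33 lies at chr19:29925114-29960718 (plus strand), Il1rl1 at chr1:40429570-40465415 (plus), Il1rap at chr16:26581704-26730117 (plus) and Gata3 at chr2:9857078-9890034 (minus). Il13 at chr11:53631324-53634702 (minus) and Il5 at chr11:53720794-53725106 (plus) share the type 2 cytokine locus with Il4. The promoter windows of the receptor gene and of the cytokine pair are printed because GATA factors are known regulators of all 3 genes. Each window is RefSeq sequence on GRCm38.p6, from 250 bases before to 50 bases after a start site. The capitals mark the hexamer AGATAA with its variant AGATAG, and the like pair that opens with T instead, TGATAA with its own variant TGATAG, all 4 searched on both strands, so that a match on the other strand appears as its reverse complement.

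Il1rl1 distal promoter, chr1:40429320-40429619, plus strand: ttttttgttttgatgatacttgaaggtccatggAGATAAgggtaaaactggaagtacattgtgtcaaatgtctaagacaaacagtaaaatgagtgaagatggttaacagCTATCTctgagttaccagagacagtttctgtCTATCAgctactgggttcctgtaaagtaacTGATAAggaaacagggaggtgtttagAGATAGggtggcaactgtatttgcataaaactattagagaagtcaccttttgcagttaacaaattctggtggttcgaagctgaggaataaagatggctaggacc

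Il1rl1 proximal promoter, chr1:40439379-40439678, plus strand: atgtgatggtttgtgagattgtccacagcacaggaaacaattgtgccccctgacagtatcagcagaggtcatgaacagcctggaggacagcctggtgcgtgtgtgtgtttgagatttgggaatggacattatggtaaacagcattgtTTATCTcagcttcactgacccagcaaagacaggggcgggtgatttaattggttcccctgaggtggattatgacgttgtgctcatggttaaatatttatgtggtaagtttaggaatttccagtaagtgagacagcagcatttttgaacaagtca

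Il5 promoter, chr11:53720544-53720843, plus strand: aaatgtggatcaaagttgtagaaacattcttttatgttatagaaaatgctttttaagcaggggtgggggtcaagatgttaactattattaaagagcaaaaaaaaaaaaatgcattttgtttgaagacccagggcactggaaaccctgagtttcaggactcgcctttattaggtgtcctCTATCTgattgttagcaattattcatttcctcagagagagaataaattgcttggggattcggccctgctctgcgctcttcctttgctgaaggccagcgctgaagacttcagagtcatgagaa

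Il13 promoter, chr11:53634653-53634952, minus strand: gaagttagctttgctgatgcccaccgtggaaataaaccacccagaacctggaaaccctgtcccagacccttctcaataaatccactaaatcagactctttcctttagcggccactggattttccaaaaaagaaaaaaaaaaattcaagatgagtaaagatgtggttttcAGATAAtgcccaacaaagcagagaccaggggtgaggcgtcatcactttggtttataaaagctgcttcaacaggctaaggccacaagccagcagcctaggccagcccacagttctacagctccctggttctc

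The distal Il1rl1 window held 5 of these hexamers, and 0.0548% of the 32851 RefSeq mouse promoter windows of the same length held at least as many. The proximal Il1rl1 window, the Il5 window, the Il13 window and the Gata3 window held 1 each, and 9778 of all windows (29.8%) held at least 1. Both Il33 windows and the Il1rap window held 0. A match is a string of letters, not a binding site, and no binding data were used here. In GENCODE M21 the distal start opens Il1rl1-205, a transcript of 1216 bases, and the proximal start lies beside that of Il1rl1-202, of 5302 bases.

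Per unit of transcript length, Il33 was the most abundant of the 6 genes and Il13 the least. Over the 12 libraries Il33 ran from 65.11 to 111.76 TPM, the length-scaled share of transcripts, Il1rap from 8.35 to 13.97 TPM, Gata3 from 2.66 to 5.68 TPM and Il1rl1 from 2.57 to 4.26 TPM. Il5 ran from 0.09 to 0.38 TPM and Il13 from 0 to 0.10 TPM. The ranges of Gata3 and Il1rl1 overlapped, as did those of Il5 and Il13, while the other neighbours in this order did not overlap. The accessory chain, which also serves the receptors of IL-1 and IL-36, was listed at a higher TPM than ST2 in each library.

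**Figure D1:**
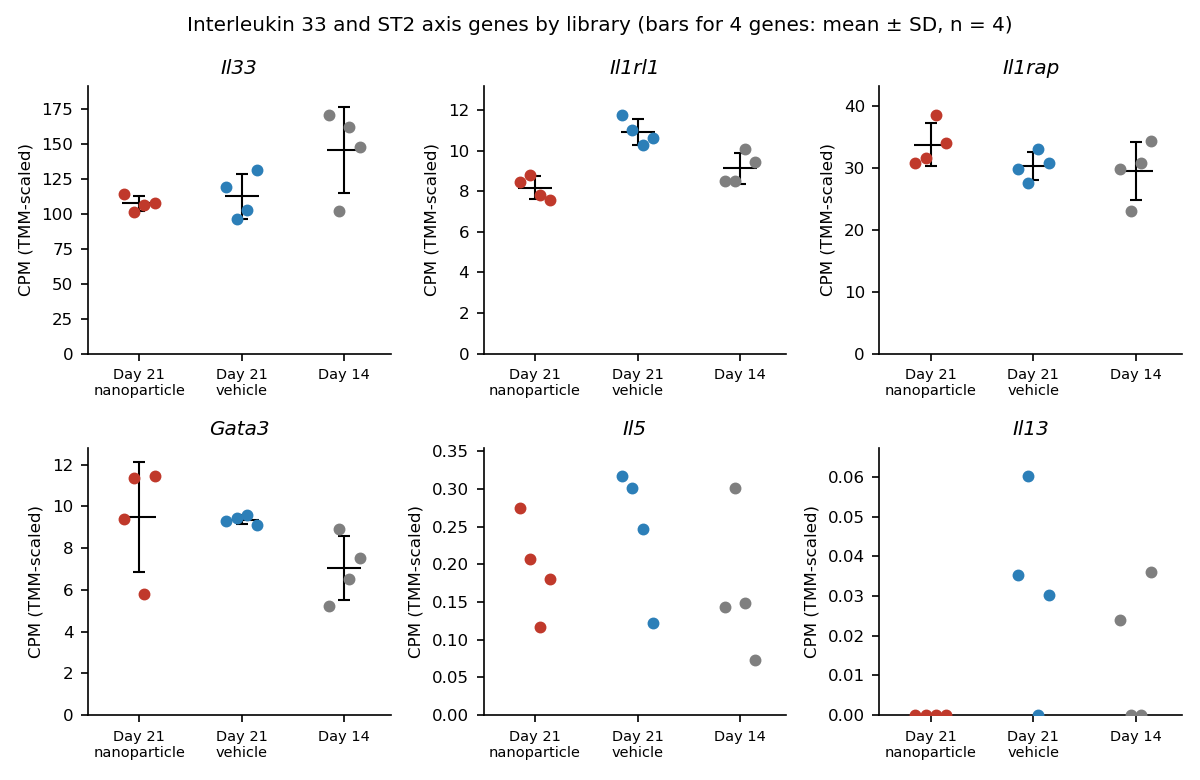
CPM (TMM-scaled) of each of the 6 genes by library, with the Day 21 nanoparticle, Day 21 vehicle and Day 14 groups from left to right; points are mice, and bars give mean ± SD (n = 4) for the 4 genes with enough counts. Il33 reaches 170.8 CPM at Day 14, Il1rl1 separates NP from vehicle lungs, 1 NP library is low in Gata3, and Il13 is at 0 in all NP lungs.

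The ligand was higher in most Day 14 lungs than in any Day 21 lung. Il33 had 114.2, 101, 106.2 and 107.9 CPM in NP lungs, 119.4, 95.86, 102.4 and 131.5 CPM in vehicle lungs, and 170.8, 101.8, 162.3 and 148 CPM in Day 14 lungs. Day 14 replicate 2 was alone among the Day 14 lungs in lying within the Day 21 range, so each Day 21 group overlapped Day 14. The means were 107.3 ± 5.44 CPM in NP lungs, 112.3 ± 16.2 CPM in vehicle lungs and 145.7 ± 30.8 CPM in Day 14 lungs (SD, n = 4 each).

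Neither difference of Il33 from Day 14 passed the threshold, which was an adjusted p under 0.05 in edgeR's quasi-likelihood test over all 17909 genes. The log2 fold change was −0.44 in NP lungs (SE 0.14, adjusted p = 0.0519) and −0.38 in vehicle lungs (SE 0.14, adjusted p = 0.103), both against Day 14. Without Day 14 replicate 2 both passed, at −0.57 in NP lungs (adjusted p = 0.00439) and −0.50 in vehicle lungs (adjusted p = 0.0101). The NP call was also reached without vehicle replicate 4 (−0.44, adjusted p = 0.0465) and was not reached without NP replicate 3 (−0.42, adjusted p = 0.0865). Between the Day 21 groups the Il33 fold change was −0.06, NP over vehicle.

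The known cellular sources of Il33 in mouse lung include alveolar type 2 cells and adventitial fibroblasts. Of 11 type 2 cell markers, 2 rose and 0 fell in NP lungs, where 6.16% of all genes rose and 8.56% fell, and 3 rose and 0 fell in vehicle lungs, where 3.79% rose and 6.51% fell. The other type 2 cell markers were not called. Slc34a2, a phosphate carrier of these cells, averaged 2156 ± 173 CPM in NP lungs and 1663 ± 186 CPM in Day 14 lungs (log2 fold change 0.37, adjusted p = 0.0147), and in vehicle lungs its change was 0.35 (adjusted p = 0.0249). Of 10 adventitial fibroblast markers, 1 rose and 5 fell in NP lungs, and 1 rose and 2 fell in vehicle lungs. The rise was Dpp4 in both, by 0.31 in NP lungs (adjusted p = 0.0163) and by 0.29 in vehicle lungs (adjusted p = 0.0276). Its NP call was lost without NP replicate 2 (adjusted p = 0.0515). Its vehicle call was lost in 5 of the fits that left 1 library out (adjusted p 0.0555 to 0.0743). Col15a1, a basement membrane collagen, was 25.06 ± 1.57 CPM in NP lungs and 41.97 ± 6.52 CPM in Day 14 lungs (−0.74, adjusted p = 0.00406). Igfbp4, which binds IGF proteins, was 240.1 ± 15.5 CPM in NP lungs and 333.7 ± 48.5 CPM in Day 14 lungs (−0.48, adjusted p = 0.00411). With each library left out, 3 or 4 fibroblast markers fell in NP lungs. The counts in NP lungs without NP replicate 3 were 2 up and 3 down for the fibroblast list and 3 up and 0 down for the type 2 cell list. Over all genes that fit made 2934 calls in NP lungs, beside 2636 with all libraries, so counts without this library have a larger background. Without Day 14 replicate 3 the vehicle counts of both lists were 0, and the vehicle call of Slc34a2 was lost in that fit as well as when vehicle replicate 3 or 4 was left out, with adjusted p between 0.0517 and 0.0787. The type 2 cell list summed to between 24560 and 25900 CPM in NP lungs, 24500 and 29100 CPM in vehicle lungs, and 21330 and 24580 CPM in Day 14 lungs. The fibroblast list summed to between 1005 and 1218 CPM in NP lungs, 1132 and 1244 CPM in vehicle lungs, and 1210 and 1410 CPM in Day 14 lungs. In whole-lung RNA fewer cells of a type and less RNA per cell cannot be told apart, and the part of either cell type in the Il33 values was not tested.

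The ST2 gene was lowest in NP lungs and highest in vehicle lungs. Il1rl1 had 8.47, 8.81, 7.81 and 7.57 CPM in NP lungs, 11.77, 11, 10.26 and 10.61 CPM in vehicle lungs, and 8.50, 8.48, 10.06 and 9.45 CPM in Day 14 lungs. All 4 NP lungs lay below all 4 vehicle lungs, all 4 vehicle lungs lay above all 4 Day 14 lungs, and NP and Day 14 lungs overlapped. The counts behind these values were 200 to 246 per library in NP lungs, 334 to 373 in vehicle lungs and 225 to 355 in Day 14 lungs.

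As the contrast that drew attention to the gene, NP over vehicle is described only: the log2 fold change of Il1rl1 was −0.42 (SE 0.09). It was −0.40 without NP replicate 3. Against Day 14 Il1rl1 passed in neither Day 21 group. The log2 fold change was −0.16 in NP lungs (SE 0.09, 95% interval −0.35 to 0.03, adjusted p = 0.243) and 0.26 in vehicle lungs (SE 0.09, 95% interval 0.07 to 0.45, adjusted p = 0.0737). These 2 comparisons share the Day 14 libraries and the libraries that drew attention to the gene.

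On the TPM scale the separation of the Day 21 groups was not complete. Il1rl1 had 3.80, 3.23, 2.57 and 2.66 TPM in NP lungs, 4.26, 3.77, 4.23 and 3.61 TPM in vehicle lungs, and 3.08, 2.96, 3.28 and 3.75 TPM in Day 14 lungs. NP replicate 1 lay above the 2 lower vehicle libraries. The difference between the scales is the effective length that RSEM gave the gene in each library, which can be recovered from the deposited count and TPM and moves with the mix of transcripts to which reads were assigned.

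**Figure D2:**
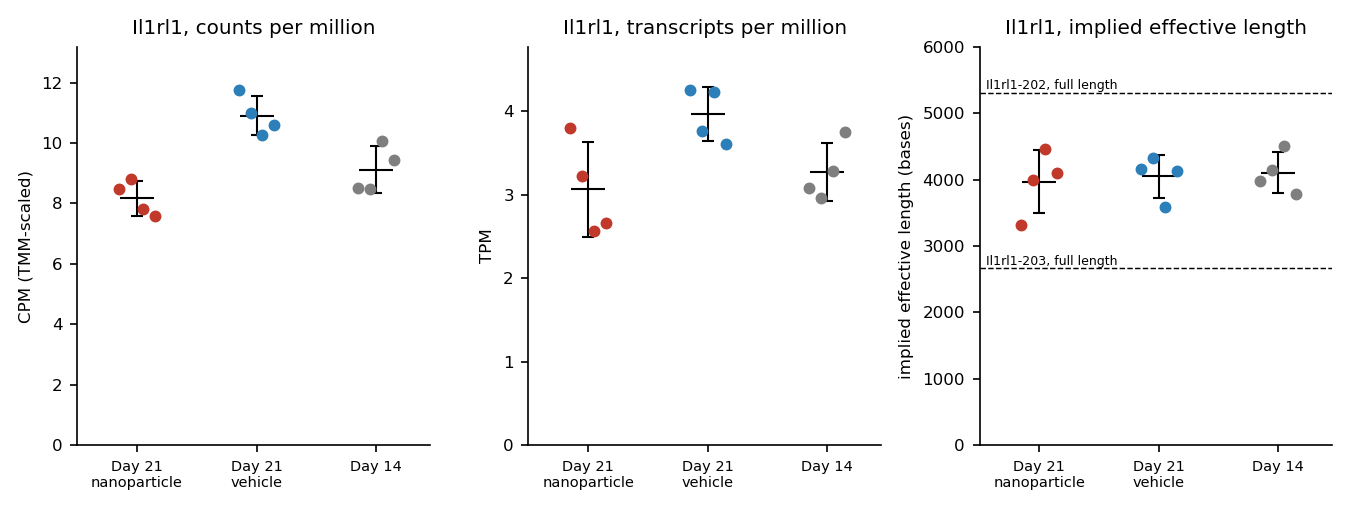
Il1rl1 by library in CPM (left), TPM (middle) and implied effective length in bases (right) for nanoparticle, vehicle and Day 14 lungs; points are mice and bars mean ± SD (n = 4), and dashed lines mark the full lengths of Il1rl1-202 (5302 bases) and Il1rl1-203 (2661 bases). NP replicate 1 has the shortest length, 3318 bases, and the highest NP value in TPM.

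The implied effective length of Il1rl1 was examined as a readout of transcript mix. It averaged 3967 ± 476 bases in NP lungs, 4051 ± 320 bases in vehicle lungs and 4104 ± 306 bases in Day 14 lungs (SD, n = 4 each). It ranged from 3318 to 4456 bases in NP lungs, from 3590 to 4330 bases in vehicle lungs and from 3780 to 4503 bases in Day 14 lungs, so the groups overlapped. Two-sided exact permutation tests over the mice gave p = 0.657 for NP against Day 14 and p = 0.771 for vehicle against Day 14, each 0.771 after adjustment over the 2 tests. No test was made of NP against vehicle, the contrast that drew attention to the gene. The smallest p that 4 against 4 libraries can give is 0.0286. Long Il1rl1 transcripts have 5053 and 5302 bases in GENCODE M21 and the shorter Il1rl1-203 has 2661, and an effective length falls short of the full length by about the fragment size. By comparison the implied length of Il1rap stayed between 3946 and 4160 bases, that of Il33 between 2150 and 2264 bases and that of Gata3 between 2765 and 2939 bases over all 12 libraries.

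The accessory chain overlapped between all 3 groups. Il1rap had 30.82, 31.61, 38.6 and 34.06 CPM in NP lungs, 29.78, 27.54, 33.08 and 30.86 CPM in vehicle lungs, and 29.84, 23.03, 30.71 and 34.29 CPM in Day 14 lungs. The highest value was that of NP replicate 3 and the lowest that of Day 14 replicate 2. The log2 fold change was 0.20 in NP lungs (SE 0.11, 95% interval −0.03 to 0.43, adjusted p = 0.232) and 0.04 in vehicle lungs (SE 0.11, 95% interval −0.19 to 0.27, adjusted p = 0.839), each against Day 14. Without NP replicate 3 the NP value was 0.14 (adjusted p = 0.409), and the sign of the vehicle value turned to −0.05 without Day 14 replicate 2 and to −0.0035 without vehicle replicate 3. NP over vehicle was 0.16, and 0.09 without NP replicate 3.

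Gata3 was above the Day 14 range in 3 of 4 NP lungs and in all 4 vehicle lungs. It had 9.40, 11.34, 5.82 and 11.45 CPM in NP lungs, 9.30, 9.43, 9.60 and 9.09 CPM in vehicle lungs, and 5.25, 8.90, 6.52 and 7.53 CPM in Day 14 lungs. NP replicate 3, the library rich in neutrophil genes, was the low one among the NP lungs. The means were 9.50 ± 2.63 CPM in NP lungs, 9.36 ± 0.213 CPM in vehicle lungs and 7.05 ± 1.55 CPM in Day 14 lungs (SD, n = 4 each).

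The Gata3 differences did not pass the threshold with all libraries. The log2 fold change was 0.44 in NP lungs (SE 0.19, adjusted p = 0.141) and 0.42 in vehicle lungs (SE 0.19, adjusted p = 0.179), each against Day 14. Without NP replicate 3 the NP value was 0.62 and passed (adjusted p = 0.0128), and the vehicle value in that fit was 0.43 (adjusted p = 0.0564). NP over vehicle was 0.02, and 0.20 without NP replicate 3.

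The effector cytokines were at the limit of detection. Il5 had 8, 5, 3 and 5 counts in NP lungs, 9, 10, 9 and 4 counts in vehicle lungs, and 6, 8, 4 and 2 counts in Day 14 lungs. Pooled over the 4 libraries of a group, Il5 was at 0.198 CPM in NP lungs (95% exact Poisson interval 0.122 to 0.302), 0.245 CPM in vehicle lungs (0.167 to 0.345) and 0.163 CPM in Day 14 lungs (0.0995 to 0.252). The intervals, which cover counting error only, overlapped between all 3 groups.

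Il13 had 0 counts in all 4 NP lungs, 1, 2, 0 and 1 counts in vehicle lungs, and 1, 0, 0 and 1 counts in Day 14 lungs. The pooled level was 0.0306 CPM in vehicle lungs (0.00833 to 0.0783) and 0.0163 CPM in Day 14 lungs (0.00197 to 0.0589), and the 0 of the NP group allows up to 0.0282 CPM by the 3-count limit and 0.0347 CPM by the exact interval, so that the intervals overlapped and no difference in Il13 was resolved at this depth. Il5 and Il13 did not pass the filter on low counts, and in a fit without that filter over 33755 genes neither passed against Day 14. The adjusted p of Il5 was 0.873 in NP lungs and 0.585 in vehicle lungs, and that of Il13 was 0.49 in NP lungs and 0.78 in vehicle lungs. Il4, their neighbour at the locus, had 29 counts over all 12 libraries, and Il9, another type 2 cytokine, had 0.

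**Figure D3:**
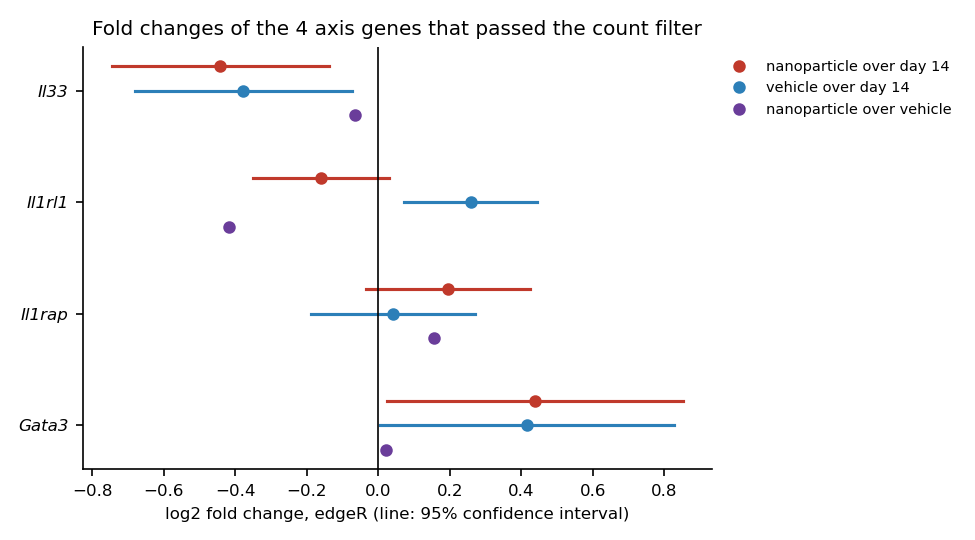
Log2 fold changes of Il33, Il1rl1, Il1rap and Gata3 from edgeR, for nanoparticle over Day 14, vehicle over Day 14 and nanoparticle over vehicle; lines are 95% confidence intervals, left off where the contrast chose the genes. Il33 is below 0 and Gata3 above 0 in both Day 21 groups, and Il1rl1 lies at −0.16 in NP lungs and 0.26 in vehicle lungs.

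Of the 4 members that passed the filter on low counts, 0 were called in NP lungs against Day 14, where 14.7% of all genes tested were called. The count was also 0 in vehicle lungs against Day 14, where 10.3% were called. At an unadjusted p under 0.05 there were 2 members in NP lungs, Il33 and Gata3, and 3 in vehicle lungs, Il33, Il1rl1 and Gata3, where 30.8% of all genes passed that level in NP lungs and 27.3% in vehicle lungs. DESeq2, run as an alternative, called 1 member in each: Il33 in NP lungs (−0.43, adjusted p = 0.0193) and Il1rl1 in vehicle lungs (0.27, adjusted p = 0.0415). Over all genes DESeq2 called 3315 in NP lungs and 2617 in vehicle lungs, beside 2636 and 1845 in edgeR. Groups that did not overlap were found for 0 members in NP against Day 14 (19% of all genes) and for 2, Il1rl1 and Gata3, in vehicle against Day 14 (17.9% of all genes). In NP against vehicle edgeR called 0 of 17909 genes (0%), 762 genes (4.25%) had an unadjusted p under 0.05, and DESeq2 called 19 genes. There 1 member, Il1rl1, did not overlap, where 3.55% of all genes did not. It had been chosen by its p in this same contrast, so its separation is a description and not a result about the members.

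With all libraries in the fit, every gene that was called among the known targets of IL-4, IL-13 and IL-33 signalling fell between Day 14 and Day 21, in NP and in vehicle lungs. The list of targets was chosen with earlier results of these data known, so its counts and medians are a description. When NP replicate 3 was left out, 7 fell and 1 rose in NP lungs, the lipoxygenase gene Alox15 (1.46, adjusted p = 0.0365). Over all genes, 1358 rose and 1576 fell in NP lungs in that fit, beside 1103 and 1533 with all libraries. Of 18 tested type 2 response targets, 0 rose and 6 fell in NP lungs, where 6.16% of all genes rose and 8.56% fell. In vehicle lungs 0 rose and 6 fell, where 3.79% of all genes rose and 6.51% fell. The median log2 fold change of the list was −0.34 in NP lungs, beside 0.0062 over all genes, and −0.41 in vehicle lungs, beside 0.0031 over all genes.

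Retnla, the secreted RELM-alpha of alternatively activated macrophages and epithelium, had 48.2, 43.24, 52.16 and 37.29 CPM in NP lungs, 45.99, 76.12, 54.05 and 63.97 CPM in vehicle lungs, and 207.9, 225.3, 271.1 and 163.3 CPM in Day 14 lungs. Every Day 21 lung lay below every Day 14 lung. It fell by 2.26 on the log2 scale in NP lungs (SE 0.18, adjusted p = 0.000262) and by 1.85 in vehicle lungs (SE 0.18, adjusted p = 0.00113). Ccl8, a chemokine that draws Th2 cells in mice, had 3.86, 2.95, 2.31 and 3.77 CPM in NP lungs, 2.86, 3.86, 3.85 and 4.29 CPM in vehicle lungs, and 8.24, 7.35, 7.57 and 6.66 CPM in Day 14 lungs. It fell by 1.21 in NP lungs (adjusted p = 0.000875) and by 1.00 in vehicle lungs (adjusted p = 0.00315), with no overlap between Day 21 and Day 14.

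The mucins Muc5ac, which IL-13 induces in airway epithelium, and Muc5b fell by 1.11 (adjusted p = 0.00279) and by 0.85 (adjusted p = 0.00323) in NP lungs. The arginine-consuming enzyme Arg1 fell by 1.35 in NP lungs (adjusted p = 0.00916) and by 1.23 in vehicle lungs (adjusted p = 0.0174). In vehicle lungs Muc5ac fell by 0.77 (adjusted p = 0.0196). With each library left out, 5 to 7 genes of the list fell in NP lungs and 2 to 7 in vehicle lungs, the lowest vehicle count being without Day 14 replicate 3. The vehicle call of Arg1 was lost without vehicle replicate 1, vehicle replicate 3 or Day 14 replicate 3 (adjusted p 0.0594 to 0.0611), and that of Muc5ac without these libraries or Day 14 replicate 1 (adjusted p 0.0597 to 0.0722).

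Below the receptor, of 20 tested genes of the signalling chain from MyD88 to NF-kB, 3 (beside 14.7% of all genes) were called in NP lungs and 1 (beside 10.3%) in vehicle lungs. In NP lungs 3 rose and 0 fell, with a median log2 fold change of 0.04, and 0 rose and 1 fell in vehicle lungs, with a median of 0.02. The 3 were Tab3, an adaptor of the kinase TAK1 (0.29, adjusted p = 0.0198), Irak3, a brake on IRAK signalling (0.34, adjusted p = 0.0274), and the kinase Irak2 (0.21, adjusted p = 0.0317). The 1 was Nfkb2, an NF-kB subunit (−0.30, adjusted p = 0.017). Leaving out Day 14 replicate 3 took the counts to 0 in both comparisons. In NP lungs without NP replicate 3, 2 rose and 1 fell, Nfkb2 (−0.23, adjusted p = 0.0437). The calls were also lost without some other libraries: that of Tab3 without NP replicate 2 or 4 (adjusted p 0.0515 to 0.0655 over all losses), and that of Irak3 without NP replicate 2, 3 or 4 or Day 14 replicate 1 (0.0504 to 0.0852). The call of Irak2 was lost without NP replicate 1 or 2 or Day 14 replicate 1 (0.0738 to 0.0989), and that of Nfkb2 without vehicle replicate 3 (0.0612 to 0.0634).

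Receptors that share Il1rap, and their antagonists, gave 7 tested genes, of which 0 rose and 1 fell in NP lungs and 0 rose and 2 fell in vehicle lungs. Of all genes, 14.7% were called in NP lungs and 10.3% in vehicle lungs. Il1rl2, the IL-36 receptor chain, had 27.03, 28, 29.18 and 27.94 CPM in NP lungs, 27.07, 32.48, 28.18 and 28.06 CPM in vehicle lungs, and 34.18, 34.72, 34.66 and 34.73 CPM in Day 14 lungs. No Day 21 lung reached a Day 14 lung, and the change was −0.30 in NP lungs (adjusted p = 0.00531) and −0.26 in vehicle lungs (adjusted p = 0.0164). Il1rn, the IL-1 receptor antagonist, fell by 0.70 in vehicle lungs (adjusted p = 0.0139). With NP replicate 3 left out, 2 fell in NP lungs, the second being the decoy receptor Il1r2 (−1.15, adjusted p = 0.037). Without Day 14 replicate 3 both vehicle calls were lost (adjusted p = 0.0514 each), and that of Il1rl2 also without vehicle replicate 1 (0.0699) or vehicle replicate 3 (0.0596).

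Among 10 tested enzymes that cut IL-33, Gzmb, the granzyme of cytotoxic cells, rose by 0.94 in NP lungs (adjusted p = 0.0188) as the 1 call, and 0 were called in vehicle lungs (3 at an unadjusted p under 0.05, 0 by DESeq2). That call was lost without NP replicate 2, Day 14 replicate 1 or Day 14 replicate 3 (adjusted p 0.0594 to 0.0602). Among 9 tested genes of other alarmins and their receptors, 1 rose and 1 fell in NP lungs, and 1 rose and 2 fell in vehicle lungs. Beside both lists, 14.7% of all genes were called in NP lungs and 10.3% in vehicle lungs. Crlf2, the receptor chain of the alarmin TSLP, fell by 0.29 in NP lungs (adjusted p = 0.00977) and by 0.35 in vehicle lungs (adjusted p = 0.00604). Both Crlf2 calls held with each library left out. In the fit without NP replicate 3, 2 rose and 2 fell in NP lungs, where Il18r1 (0.34, adjusted p = 0.0456) and the cytokine Il18 (−0.39, adjusted p = 0.0422) were added.

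Of 13 tested type 2 cytokines, receptors and STAT genes, 0 rose and 1 fell in NP lungs, and 0 rose and 2 fell in vehicle lungs. The share over all genes was 14.7% called in NP lungs and 10.3% in vehicle lungs. Il4ra, the chain through which IL-4 and IL-13 signal, had 157.8, 176.4, 191.7 and 137.7 CPM in NP lungs, 155, 149, 137.7 and 159.3 CPM in vehicle lungs, and 208.4, 201.4, 235 and 194.2 CPM in Day 14 lungs. It fell by 0.34 in NP lungs (adjusted p = 0.0289) and by 0.48 in vehicle lungs (adjusted p = 0.00784), and no Day 21 lung reached the Day 14 range. The NP call was lost without NP replicate 1, NP replicate 4, Day 14 replicate 1 or Day 14 replicate 3 (adjusted p 0.0588 to 0.0945), while the vehicle call held with each library left out. Leaving out NP replicate 3, 3 fell in NP lungs and 3 in vehicle lungs. In NP lungs those added were Csf2rb, the beta chain shared by the receptors of IL-5, IL-3 and GM-CSF (−0.55, adjusted p = 0.00326), and Csf2rb2, the IL-3 receptor beta chain of mice (−0.58, adjusted p = 0.00386). DESeq2 with all libraries called 3 in NP lungs and 5 in vehicle lungs. It also called more genes overall than edgeR, 3315 beside 2636 in NP lungs and 2617 beside 1845 in vehicle lungs. Il4 and Il13, the ligands of this receptor, were too low to compare.

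**Figure D4:**
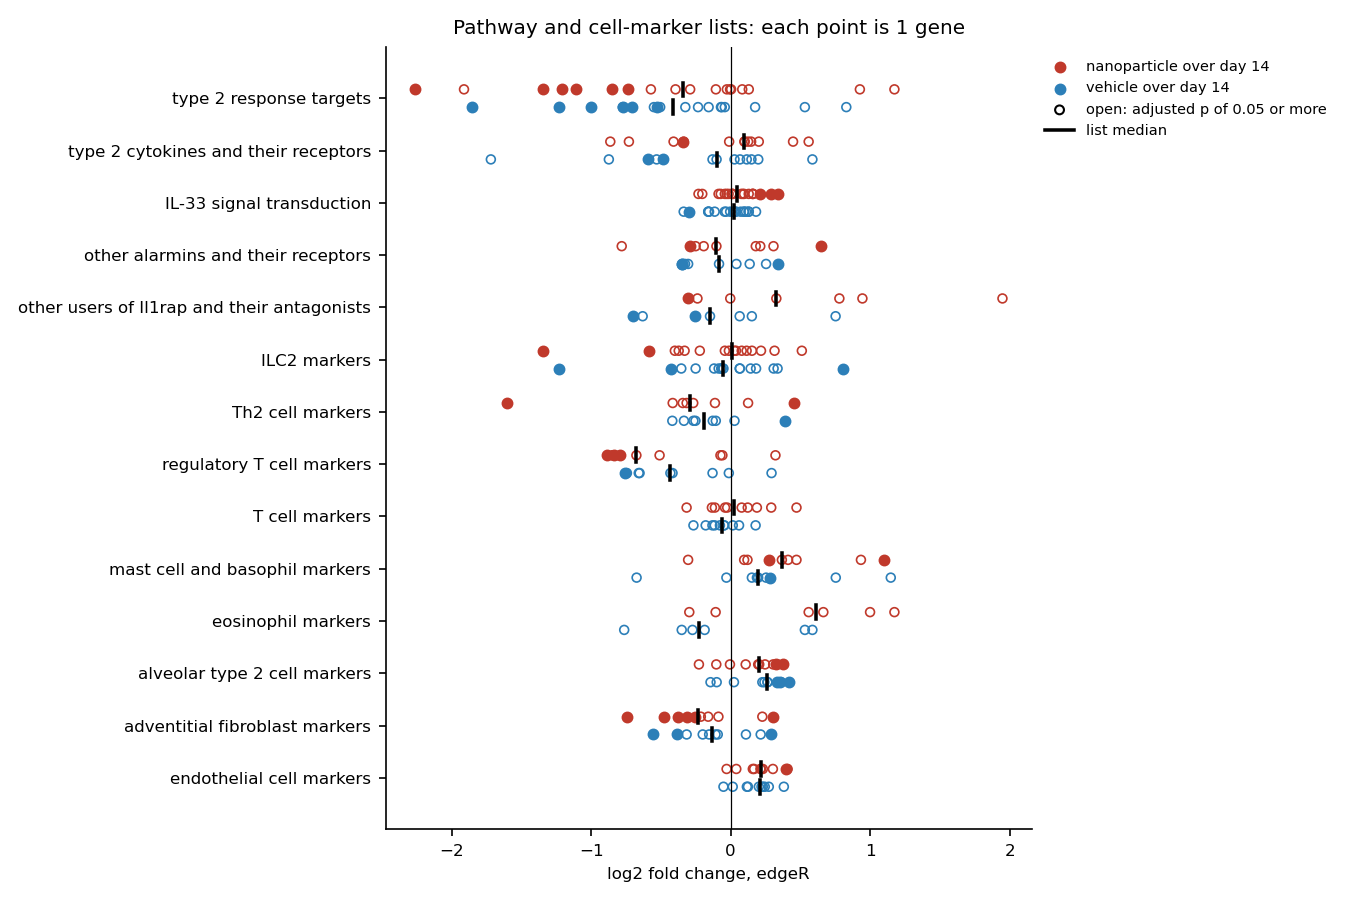
Log2 fold change of each tested gene in 14 pathway and cell-marker lists, for nanoparticle over Day 14 (red) and vehicle over Day 14 (blue); filled points passed the adjusted threshold, and black ticks are list medians. The filled points of the type 2 response targets all lie left of 0, down to −2.26 for Retnla in NP lungs.

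Markers of the cells that carry ST2 were read against the 14.7% of all genes called in NP lungs and the 10.3% called in vehicle lungs. Of 16 ILC2 markers, 0 rose and 2 fell in NP lungs: Il2ra, the high-affinity chain of the IL-2 receptor (−0.59, adjusted p = 0.00742), and Arg1. In vehicle lungs 1 rose, Ptgdr2, the prostaglandin D2 receptor of ILC2 and Th2 cells (0.81, adjusted p = 0.0304), and 2 fell, Arg1 and Il2ra (−0.43, adjusted p = 0.0369). The vehicle counts were 0 without Day 14 replicate 3. The vehicle call of Ptgdr2 was lost without any 1 of the 4 vehicle libraries or Day 14 replicate 1 or 3 (adjusted p 0.051 to 0.0913), and that of Il2ra without the same libraries or NP replicate 1 (0.0531 to 0.113). When NP replicate 3 was omitted, 1 rose and 2 fell in NP lungs, the rise being Ets1, a lymphocyte transcription factor (0.42, adjusted p = 0.0155). The list summed to between 540.9 and 684.3 CPM in NP lungs, 546.8 and 664 CPM in vehicle lungs, and 516.6 and 603.6 CPM in Day 14 lungs, and 0 of its genes were at 0 in all libraries. Such a sum is weighted to abundant genes. The list mean of log2 CPM, each gene centred on its own mean, weights genes alike. It ran from −0.167 to 0.006 in NP lungs, −0.003 to 0.03 in vehicle lungs and 0.039 to 0.075 in Day 14 lungs. Every Day 14 lung thus lay above every Day 21 lung in this mean, which was not tested. The list holds Arg1, whose log2 fold change against Day 14 was −1.35 in NP lungs and −1.23 in vehicle lungs. The mean was not taken without Arg1, so the separation cannot be read as a loss across the list. The median log2 fold change of the list was 0.0064 in NP lungs and −0.06 in vehicle lungs.

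Of 8 tested Th2 markers, 1 rose and 1 fell in NP lungs. Irf4, a transcription factor of activated lymphocytes and macrophages, rose by 0.45 (adjusted p = 0.00703), and Ccr8, a homing receptor of Th2 and regulatory T cells, fell by 1.60 (adjusted p = 0.0101) at levels of 0.214 ± 0.120 CPM in NP lungs and 0.632 ± 0.185 CPM in Day 14 lungs. In vehicle lungs 1 rose, Irf4 (0.39, adjusted p = 0.0197), and 0 fell, and that call was lost without vehicle replicate 1 or Day 14 replicate 1 or 3 (adjusted p 0.0582 to 0.0616). The Th2 list summed to between 226.3 and 252.5 CPM in NP lungs, 229.2 and 232.8 CPM in vehicle lungs, and 229.1 and 239.2 CPM in Day 14 lungs. Its mean of centred log2 CPM ran from −0.28 to 0.051 in NP lungs, −0.071 to 0.093 in vehicle lungs and 0.103 to 0.176 in Day 14 lungs. In this mean too, every Day 14 lung lay above every Day 21 lung, with no test made. The separation was not particular to markers of ST2-bearing cells. The mean of the adventitial fibroblast list was at least 0.035 in Day 14 lungs and at most 0.03 in Day 21 lungs. That of the type 2 response targets was at least 0.071 in Day 14 lungs and at most 0.051 in Day 21 lungs. Among single genes, 19% in NP lungs and 17.9% in vehicle lungs did not overlap Day 14.

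Of 9 tested regulatory T cell markers, 0 rose and 3 fell in NP lungs, with a median of −0.68, and 0 rose and 1 fell in vehicle lungs, with a median of −0.43. Foxp3, which defines these cells, had 1.96, 1.87, 2.07 and 1.63 CPM in NP lungs, 1.59, 2.50, 2.34 and 1.82 CPM in vehicle lungs, and 2.78, 4.37, 3.76 and 2.21 CPM in Day 14 lungs. It fell by 0.79 in NP lungs (adjusted p = 0.0262), where no library overlapped Day 14. That call was lost without NP replicate 1, 2 or 4, or without Day 14 replicate 2 or 3 (adjusted p 0.054 to 0.0793). The costimulatory receptor Tnfrsf9 fell by 0.84 in NP lungs (adjusted p = 0.00816), which held with each library left out, and by 0.76 in vehicle lungs (adjusted p = 0.0167), which did not hold without vehicle replicate 1, vehicle replicate 3 or Day 14 replicate 3 (0.0534 to 0.0628). Of the 9 regulatory T cell markers 1 rose in NP lungs without NP replicate 3, Nrp1 (0.37, adjusted p = 0.0414), and 2 fell. The list summed to between 468.8 and 508.7 CPM in NP lungs, far above the level of Foxp3. Which cells gave Nrp1 and the other abundant genes of the list was not tested. Of 10 general T cell markers, edgeR called 0 in either comparison, with 1 at an unadjusted p under 0.05 in NP lungs and 0 in vehicle lungs, and DESeq2 called 0 in both. The gene of smallest p among them was Cd8a in NP lungs (0.47, adjusted p = 0.106) and Cd4 in vehicle lungs (−0.27, adjusted p = 0.26). Cd8a, a chain of the cytotoxic T cell coreceptor, passed in NP lungs without NP replicate 3 (0.64, adjusted p = 0.0144).

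Of 9 tested mast cell and basophil markers, 2 rose in NP lungs, Kit (0.28, adjusted p = 0.0267) and the steroid enzyme Cyp11a1 (1.10, adjusted p = 0.0317, mean 0.457 CPM in NP lungs and 0.212 CPM in Day 14 lungs), and Kit rose in vehicle lungs (0.28, adjusted p = 0.0311). The counts were 0 without Day 14 replicate 3. The NP calls of Kit and Cyp11a1 were also lost without NP replicate 1, 2 or 4 or Day 14 replicate 1 (adjusted p 0.0551 to 0.0911 over all losses), and the vehicle call of Kit without vehicle replicate 1, 3 or 4 or Day 14 replicate 1 (0.0592 to 0.103). Without NP replicate 3, 3 rose in NP lungs, with Ms4a2, a chain of the IgE receptor, added (1.21, adjusted p = 0.0208). Kit, which lung capillary endothelium also expresses, had between 237.3 and 265.7 CPM in NP lungs, 237.3 and 267.6 CPM in vehicle lungs and 191.5 and 239.8 CPM in Day 14 lungs, while the mast cell protease Cpa3 had at most 1.02 CPM in any library. Of 6 tested eosinophil markers edgeR and DESeq2 called 0 in either comparison, with 2 at an unadjusted p under 0.05 in NP lungs and 0 in vehicle lungs, the smallest p being that of Alox15 in NP lungs (1.17, adjusted p = 0.117) and of Il5ra, the IL-5 receptor chain, in vehicle lungs (0.59, adjusted p = 0.322). Alox15 passed in NP lungs without NP replicate 3 (1.46, adjusted p = 0.0365). The granule genes Prg2, Epx and Prg3 had at most 17 counts, 4 counts and 1 count in any library. In NP against vehicle lungs edgeR called 0 of all 17909 genes, and therefore 0 genes of these lists. At an unadjusted p under 0.05, which 4.25% of all genes had there, the contrast held 6 of 8 neutrophil markers, with NP replicate 3 in the fit. It also held 4 of 9 genes of other alarmins and 4 of 20 signalling genes. Each other list, members aside, had at most 2.

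Endothelial markers, a further possible source of Il33, gave 1 rise of 10 in NP lungs, the angiopoietin receptor Tek (0.39, adjusted p = 0.0158, lost at 0.0549 without NP replicate 4), and 0 calls in vehicle lungs (4 at an unadjusted p under 0.05, 1 by DESeq2). Over all genes edgeR called 14.7% in NP lungs and 10.3% in vehicle lungs. The 8 capillary subtype markers gave 0 calls in both by edgeR and DESeq2, with 1 at an unadjusted p under 0.05 in NP lungs and 0 in vehicle lungs. The gene of smallest p among them was Ednrb, an endothelin receptor, at 0.51 in NP lungs (adjusted p = 0.148) and 0.44 in vehicle lungs (adjusted p = 0.229). Without NP replicate 3 the capillary list had 2 rises and the endothelial list 3 in NP lungs. The 8 neutrophil markers gave 0 calls in edgeR, with a median log2 fold change of 2.56 in NP lungs, 0.79 in NP lungs without NP replicate 3, and 0.53 in vehicle lungs. At an unadjusted p under 0.05 there were 7 in NP lungs and 0 in vehicle lungs, and DESeq2 called 2 in NP lungs and 0 in vehicle lungs.

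Il1rl1 lies in a cluster of IL-1 receptor family genes on chromosome 1, and its neighbours were examined in a window chosen after their values had been seen. All 10 protein-coding genes within 350000 bases, Il1rl1 included, were tested. Il18r1, the IL-18 receptor chain, starts 137 bases past the annotated end of Il1rl1 on the same strand. It had 123.8, 127.9, 109.3 and 99.93 CPM in NP lungs, 116.1, 139.2, 102.9 and 112.8 CPM in vehicle lungs, and 85.12, 88.44, 100.4 and 98.75 CPM in Day 14 lungs. Vehicle lungs lay above Day 14 lungs, and 1 NP lung lay within the Day 14 range. The log2 fold change was 0.31 in NP lungs (adjusted p = 0.0515) and 0.34 in vehicle lungs (adjusted p = 0.0437). The vehicle call was lost without vehicle replicate 1, 2 or 4, or Day 14 replicate 1, 2 or 3 (adjusted p 0.0585 to 0.117), and the NP call was reached without NP replicate 3, NP replicate 4 or vehicle replicate 2 (0.0269 to 0.0456).

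Il18rap, the accessory chain of the IL-18 receptor, had 17.39, 18.4, 23.79 and 18.95 CPM in NP lungs, 16, 17.15, 14.68 and 11.98 CPM in vehicle lungs, and 10.49, 15.27, 11.51 and 13 CPM in Day 14 lungs. All NP lungs lay above all vehicle and all Day 14 lungs. It rose by 0.65 in NP lungs against Day 14 (adjusted p = 0.00812, and 0.0148 without NP replicate 3), while vehicle lungs gave 0.25 (adjusted p = 0.249). In NP lungs Il1rl2, on one side of Il1rl1, thus fell and Il18rap, on the other side, rose. The other receptor genes there, Il1r1 and Il1r2, were not called with all libraries, and Il1r2 had 7.50 CPM in NP replicate 3 against 0.435 to 0.585 CPM in the other NP lungs. At the type 2 cytokine locus, Rad50 and Irf1, which flank Il5, were not called: the adjusted p of Rad50 was 0.334 in NP lungs and 0.721 in vehicle lungs, and that of Irf1 was 0.204 in NP lungs and 0.476 in vehicle lungs. Gm12216, a predicted gene there, rose by 0.60 in NP lungs (adjusted p = 0.0155) and by 0.58 in vehicle lungs (adjusted p = 0.0226). It was the only call among the 6 tested genes of that window. Over all genes 14.7% were called in NP lungs and 10.3% in vehicle lungs. The calls of Gm12216 were not examined with each library left out.

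**Figure D5:**
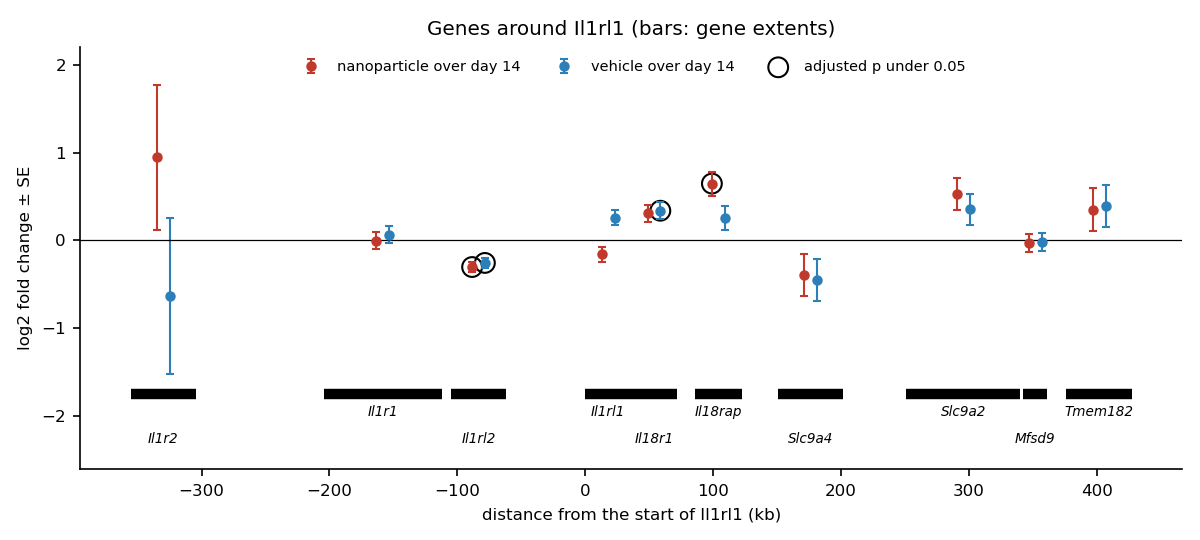
Log2 fold change ± SE of the 10 protein-coding genes around Il1rl1 against distance from its start in kb, for nanoparticle over Day 14 (red) and vehicle over Day 14 (blue), with black bars for gene extents and circles for an adjusted p under 0.05. Il1rl2 lies below 0 in both comparisons, Il18r1 and Il18rap lie above 0, and Il1rl1 lies on either side.

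The profiles most like that of Il1rl1 over the 12 libraries were measured by the root-mean-square difference of centred log2 CPM among 13065 candidate genes. They were those of Adgrd1, an adhesion receptor of the G-protein-coupled class (0.10), Pcdhb14, a protocadherin (0.11), Ntn3, a netrin (0.12), Nudt11 (0.12) and Slc25a26, the mitochondrial S-adenosylmethionine carrier (0.13). The SD of Il1rl1 itself was 0.20 on this scale. Adgrd1 averaged 11.18 CPM in NP lungs, 13.32 CPM in vehicle lungs and 11.65 CPM in Day 14 lungs, with vehicle lungs highest, as for Il1rl1. The profiles most like that of Il33, whose SD was 0.28, were those of Dnaja1, a heat-shock co-chaperone (0.10), Ackr3, a scavenging chemokine receptor (0.12), Ywhag, a 14-3-3 protein (0.12), Foxk2 (0.12) and Mat1a (0.13). Dnaja1 averaged 205.3 CPM in NP lungs, 208.6 CPM in vehicle lungs and 271.7 CPM in Day 14 lungs. The likeness is a description over libraries that share these 3 groups.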

How the data were processed

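Paired-end 151 bp reads came from polyA RNA of the lungs of 12 mice, 4 in each of 3 groups, per the labels' protocols. According to the submitters' processing notes the tools were STAR 2.7.8a and RSEM 1.3.3 on GRCm38, with trimming by cutadapt 4.8. Neither the annotation release nor the strand setting is given in the sources used here. The deposited expected counts are whole numbers per gene and library. The deposited TPM values are scaled for transcript length to the same total in each library, and the deposited FPKM values for length and library size. Columns were matched to mice by the library names in the labels. Replicates are separate mice, per the labels' titles.

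Members and gene lists (19 lists, 209 entries, 208 matched) were chosen with earlier results of these data known. All 6 members are given. From each list some of the called genes are named with values, and the other called genes are only counted. The gene of smallest p is given for the T cell, eosinophil and capillary lists, where none was called. Expected counts were tested with edgeR 4.0.16 (R 4.3.3, limma 3.58.1, statmod 1.5.0): filterByExpr (minimum count 10, total 15, 17909 genes kept), TMM scaling, and 1 robust quasi-likelihood fit of all 12 libraries with a group term, with Benjamini-Hochberg adjustment over all genes and 0.05 as threshold. CPM values use TMM-scaled library sizes. Like profiles were sought among protein-coding genes with average log2 CPM of at least 1 (prior count 2). Exact Poisson intervals are at 95%, and a count of 0 allows 3 counts. The implied effective length was computed from each gene's count and TPM, scaled by FPKM. The edgeR script was tested on simulated counts. Within groups no library repeated another: the chi-square over degrees of freedom lay between 7.97 and 33.2 for the 18 pairs within groups. Pairs across groups were not checked in this way. Alternatives were other scaling factors, no filter, DESeq2 1.42.0, limma on log2 TPM or FPKM with pseudocounts 1 or 0.1, only the 2 groups compared, a replicate block, and each library left out.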

Additional observations from a re-analysis of the deposited data

Results flagged for a closer look

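Over 183 sets of 4 libraries (1 gene or length in 1 group), 7 (3.83%) had 1 library set apart from the other 3 by a gap whose share of the whole range exceeded Dixon's critical value, which chance gives for about 1 in 20 sets. None of the 7 was a member of the axis. Among NP lungs replicate 3 was the high one for S100a8 (share of the range 0.994) and for Il1r2 (0.979). Among vehicle lungs replicate 2 was the low one for Tek, at 287.3 CPM (0.967), and replicate 3 the high one for Ccr8, at 0.550 CPM (0.937). Among Day 14 lungs replicate 2 was the high one for Cpa3, at 1.02 CPM (0.874), and for Dpt, at 293 CPM (0.866), and replicate 1 the low one for Il1rl2, at 34.18 CPM (0.867).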

How the results depend on the processing

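NP against Day 14 had 2636 calls, against 1672 with only the 2 groups in the fit, 1607 and 1577 with limma on log2 TPM with pseudocounts 1 and 0.1, 1629 with limma on log2 FPKM, and 1363 (without Day 14 replicate 3) to 2934 (without NP replicate 3) with each library left out. Vehicle against Day 14 had 1845 calls, against 1051, 995 and 1063 with limma on TPM with pseudocounts 1 and 0.1 and on FPKM, and 719 (without Day 14 replicate 3) to 2162 (without NP replicate 3) with each library left out. DESeq2 called 3315 genes in NP against Day 14 and 2617 in vehicle against Day 14. NP against vehicle had 0 calls, 0 with each library left out, and 19 in DESeq2 (17 higher, 2 lower). Il33 in NP against Day 14 passed with upper-quartile factors (−0.43, adjusted p = 0.0424) and in DESeq2 (−0.43, adjusted p = 0.0193), and ran from −0.57 to −0.36 with each library left out. Against Day 14, with each library left out, Il33 in vehicle lungs ran from −0.50 to −0.29, Gata3 in NP lungs from 0.31 to 0.62, Il1rap in vehicle lungs from −0.0471 (without Day 14 replicate 2; −0.0035 without vehicle replicate 3) to 0.13, and Il1rl1 from −0.20 to −0.11 in NP lungs and from 0.22 to 0.31 in vehicle lungs. Il1rl1 in vehicle lungs passed in DESeq2 (0.27, adjusted p = 0.0415). NP over vehicle for Il1rl1 was −0.30 with limma on TPM and −0.27 on FPKM, both with pseudocount 1. The cause of these differences was not tested. Against Day 14 the sign of 1 member, Il1rap in vehicle lungs, changed, as named above. NP over vehicle, Il33 ran from −0.13 to 0.02 and Gata3 from −0.08 to 0.20 over the alternatives. Fewer than 11 counts per library limit Il5 and Il13.

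The replicate numbers are shared by the groups in the labels, but same-numbered mice did not deviate together: over 12 pairs r ran from −0.07 to 0.15, and 2 were over 0.1. With the replicate block Il33 passed against Day 14 in NP lungs (−0.42, adjusted p = 0.0219) and in vehicle lungs (−0.36, adjusted p = 0.0464), and no other member changed its call.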
